A study of Mus musculus with 35 samples.

Results

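The livers of 5 mice killed 1 day after N-ethyl-N-nitrosourea (ENU) were compared with those of 7 vehicle controls, 12 of the 35 samples of the series, to find which miRNAs had changed by post-treatment day (PTD) 1. All mice were 6-month-old female Big Blue Transgenic mice, which carry a bacterial reporter gene for mutation assays in every cell. The ENU mice had received a single intraperitoneal injection of 120 mg/kg body weight, and the controls had received dimethylsulfoxide (DMSO). By their labels, 3 of the controls were killed on day 1 and 4 on day 30 after DMSO, but the run names inside the files of the former read D0, and which day these mice were killed was not settled. Each liver was measured on 1 real-time PCR array of 384 wells, with 376 miRNAs, 4 reference small RNAs and 4 control wells, so a value covers all cells of the tissue piece. In such a sample, fewer cells of a type and less of the miRNA in each cell cannot be told apart.

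ENU is an alkylating agent that ethylates DNA bases and is a strong mutagen and carcinogen in rodents. DNA damage activates the transcription factor p53, and miR-34a, miR-34b and miR-34c are among its direct targets. These miRNAs repress cell cycle and survival genes such as Cdk4, Cdk6 and Bcl2. ENU is also toxic to lymphoid and bone marrow cells, and the liver holds resident and circulating leukocytes that carry miRNAs of their own, among them miR-150 of mature lymphocytes.

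The sequences below are those of miRNAs named in the results, from RefSeq on build GRCm38.p6. Mature sequences of miR-150, miR-34c and miR-449b were not available and are not shown. Those below are written 5′ to 3′ with the seed (bases 2 to 8, which pair with the target) in capitals. The first 4 have the same seed, GGCAGUG, and belong to the miR-34 and miR-449 family, while the last of this group is the other arm of the miR-34b hairpin, with a seed of its own. The array names miR-34a, miR-449a and miR-449c carry no arm, and the 5p arm is shown because it is the main product of these hairpins.
miR-34a-5p: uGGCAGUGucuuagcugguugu
miR-34b-5p: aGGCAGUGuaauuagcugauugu
miR-449a-5p: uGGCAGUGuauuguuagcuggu
miR-449c-5p: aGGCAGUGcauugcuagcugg
miR-34b-3p: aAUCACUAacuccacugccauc

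The mature miR-34a-5p lies at chr4:150068473-150068494 on the plus strand, and no other RefSeq gene overlaps Mir34a. The mature miR-34b-5p lies at chr9:51103610-51103632 on the minus strand. Its gene is 451 bases from Mir34c, and both lie within the spans of the protein-coding genes Hoatz and Btg4. The 3 miR-449 genes lie together within the span of Cdc20b on chromosome 13.

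The next set holds miRNAs of immune cells and miR-700, which was also down-regulated at PTD 1, with miR-146b shown because its seed is that of miR-146a. The array names miR-146a, miR-146b, miR-155 and miR-700 give no arm. Both arms are shown for miR-700 and the 5p arm for the others of these.
miR-146a-5p: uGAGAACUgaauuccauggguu
miR-146b-5p: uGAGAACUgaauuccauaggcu
miR-155-5p: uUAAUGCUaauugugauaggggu
miR-342-3p: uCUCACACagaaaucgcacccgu
miR-700-3p: cACGCGGGaaccgaguccacc
miR-700-5p: uAAGGCUCcuuccugugcuugc

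The mature miR-146a-5p lies at chr11:43374435-43374456 on the minus strand in Mir146, which overlaps no other RefSeq gene. Mir155 lies in the lncRNA gene Mir155hg, Mir342 within the span of Evl and Mir700 within that of Rcan3. Mir150 lies at chr7:45121757-45121821 and overlaps no other gene of the table.

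The level of a miRNA is given as -ΔCt, the mean Ct of the 4 reference RNAs of the array minus the Ct of the miRNA, on a log2 scale. The arrays were run in 3 periods. The first held the 3 controls of day 1 and 4 ENU arrays (replicates 1, 2, 3 and 5), the second 2 controls of day 30 and ENU replicate 4, and the third the other 2 controls of day 30. The reference RNAs had a mean Ct of 21.1 to 21.4 in the 3 controls of the first period, 21.7 to 22.3 in the other 4 controls and 21.0 to 22.1 in the ENU arrays. The median Ct of the miRNAs was 28.7 to 29.3 in the controls and 28.8 to 29.1 in 4 ENU arrays, but 30.2 in ENU replicate 4. That array also had the lowest Ct of snoRNA202 of the 12, 21.2 against at least 22.3 in the others. The control day, the run period and the level of the reference RNAs moved together among the controls and cannot be told apart there. Each of the 5 miRNAs called over the 12 arrays is therefore also given within the first period, and the calls were repeated with the period as a block and with levels relative to the median miRNA of the array.

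**Figure D1:**
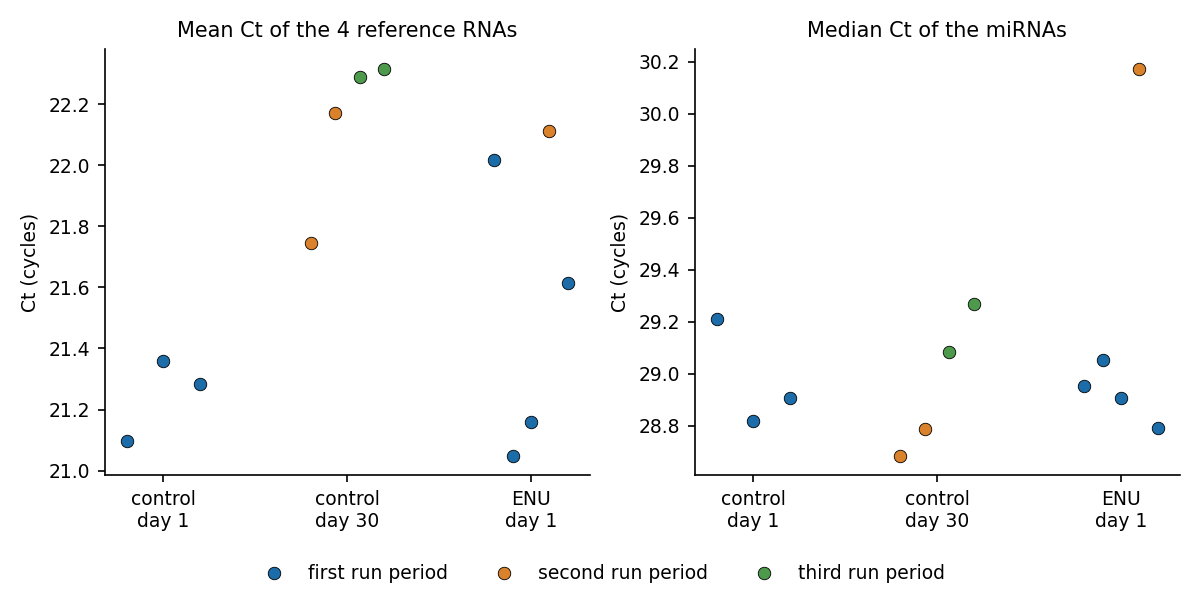
Mean Ct of the 4 reference RNAs (left) and median Ct of the 376 miRNAs (right) in each of the 12 arrays, in cycles, with points coloured by run period. The reference RNAs of the controls labelled day 30 had a higher Ct than those of the controls labelled day 1, and ENU replicate 4 had a median miRNA Ct of 30.2.

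The tissue label was met by the data. miR-122, the main miRNA of hepatocytes, had the lowest mean Ct of all 376 miRNAs, 14.4, and the miRNAs listed for muscle, neurons, pancreas and embryonic stem cells had mean Ct values of 26.0 or more. Primer pairs differ in efficiency, so Ct values of different miRNAs give no exact ratio.

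At PTD 1, miR-34a and miR-34b-5p were up-regulated and miR-150, miR-146a and miR-700 were down-regulated, by 2.24 to 3.29 fold. A differentially expressed miRNA (DEM) is one with a fold change above 2 and an unadjusted limma p under 0.01. The 5 DEMs were 1.33% of the 376 miRNAs, with 2 higher (0.532%) and 3 lower (0.798%). None had a Benjamini-Hochberg adjusted p under 0.05 in limma, and 19 miRNAs (5.05%) had an unadjusted p under 0.05, the 2 higher DEMs being the only higher ones. The log2 fold change was negative for 300 miRNAs and positive for 76, with a median of -0.37 over all 376, so each value is to be read against this shift.

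miR-34a had -ΔCt values of -0.0014, -0.49, 0.09, -0.33 and 0.78 in ENU replicates 1 to 5. The controls ran from -1.79 through a median of -1.29 to -0.66. Every ENU liver was therefore above every control, which held for 1 of the 376 miRNAs in this direction (0.266%). The log2 fold change was 1.24 (SE 0.34, limma adjusted p = 0.430), and the exact permutation test over the 792 assignments of 5 and 7 arrays gave p = 0.00126, the smallest it can give. In the first run period, the mean of the 4 ENU livers was 1.14 above that of the 3 controls (SE 0.48, exact permutation p = 0.0571, where 35 assignments allow 0.0286 at the least). Relative to the median miRNA of its array, miR-34a was at 6.93, 7.51, 7.83, 7.73 and 7.96 in the ENU livers and from 5.01 to 7.25 in the controls. Replicate 1 lay below 2 controls on this scale, so the groups overlapped. The log2 fold change was 1.62 (SE 0.40) over the 12 arrays and 0.88 within the first run period (exact permutation p = 0.114).

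miR-34b-5p had -ΔCt values of -5.44, -5.72, -5.13, -4.56 and -4.13 in the ENU livers. The controls ran from -6.56 through -6.23 to -5.67. The ENU livers were above all controls except that replicate 2 fell just below the highest control. The log2 fold change was 1.16 (SE 0.35, limma adjusted p = 0.613, exact permutation p = 0.00253), with 1.12 (SE 0.50) within the first run period. Leaving out 1 array ended the call in 4 of 12 cases, with log2 fold changes of 1.10 without control day 1 replicate 2, 1.09 without control day 30 replicate 3, 1.05 without ENU replicate 4 and 0.94 without ENU replicate 5.

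The other members of the family were not DEMs. miR-34c, made from the same primary transcript as miR-34b, had -ΔCt values of -8.12, -9.57, -8.61, -8.56 and -8.01 in the ENU livers against -9.78 to -8.54 in the controls, and the groups overlapped. Its log2 fold change was 0.62 (SE 0.37, limma adjusted p = 0.669, exact permutation p = 0.0833). It was 0.99 relative to the median miRNA (0.48 within the first run period) and 1.01 relative to the mean of the miRNAs at a mean Ct of at most 30, where miR-34c was a DEM. The other arm of miR-34b, miR-34b-3p, had a log2 fold change of -0.09 (SE 0.38), and its difference from that of miR-34b-5p, of the same hairpin, was not tested. miR-449a, miR-449b and miR-449c, known from ciliated cells, had log2 fold changes of 0.01, 0.22 and -0.44, each within its SE. Of the 7 miRNAs listed with the family, which include miR-34b-3p despite its other seed, 5 had a positive log2 fold change. Their median was 0.22 against -0.37 over all miRNAs. In the first run period, 6 of 7 were positive and the medians were 0.84 and 0.21.

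**Figure D2:**
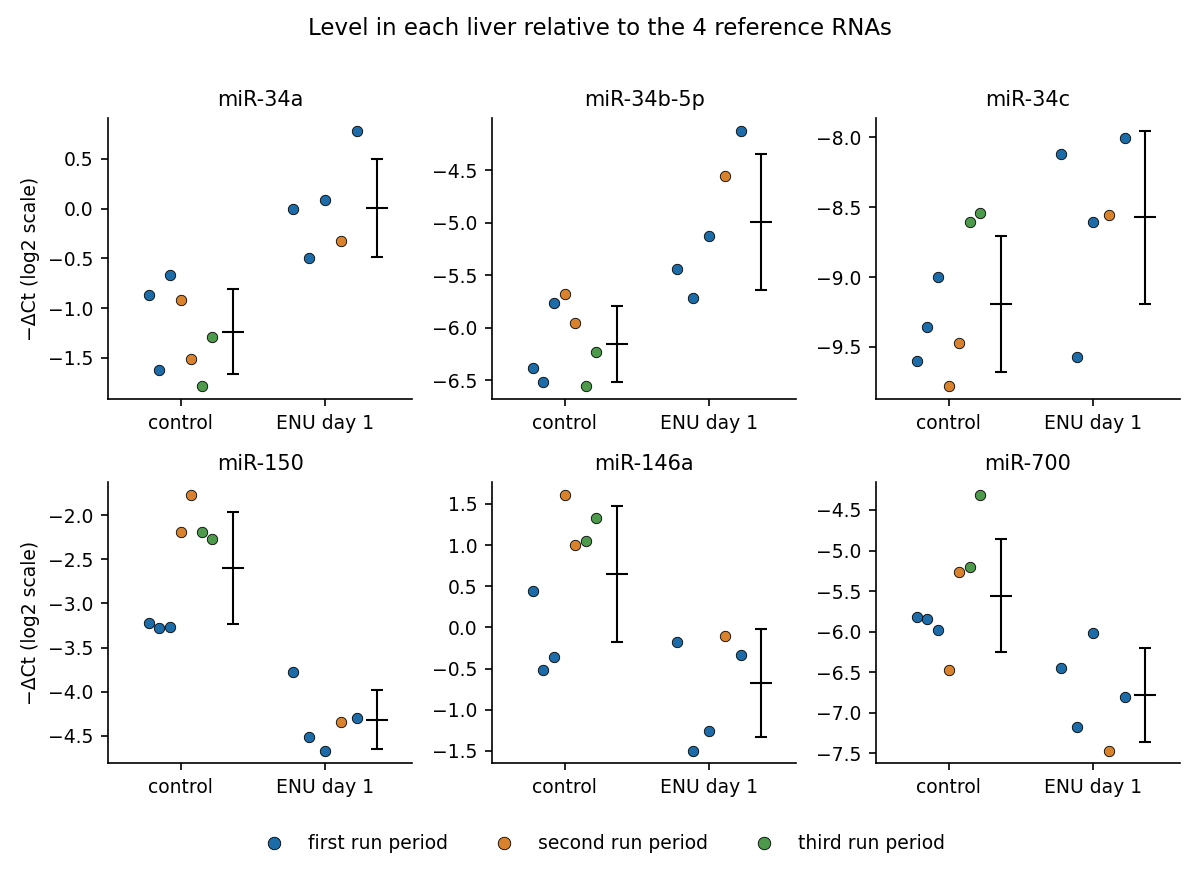
-ΔCt (log2 scale) of the 5 DEMs and of miR-34c in each of the 12 livers, with points coloured by run period and the mean ± SD of each group beside them. For miR-34a and miR-150, no ENU liver overlapped a control, and the controls of miR-150 and miR-146a lay lower in the first run period than in the later ones.

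miR-150, which restrains the transcription factor Myb in lymphocytes, showed the smallest p of the 376 miRNAs. Its -ΔCt values were -3.78, -4.51, -4.67, -4.34 and -4.29 in the ENU livers. In the controls they were -3.22, -3.28 and -3.26 on day 1 and -2.19, -1.77, -2.19 and -2.27 on day 30. Every ENU liver was below every control, which held for 1 of the 376 miRNAs (0.266%), and the 3 controls of the first run period were nearer to the ENU livers. The log2 fold change was -1.72 (SE 0.36, limma adjusted p = 0.108, exact permutation p = 0.00126). Within the first run period it was -1.06 (SE 0.45, exact permutation p = 0.0571). With the run period as a block it was -1.42 (SE 0.36), and the limma p was 0.0012 in this fit across all miRNAs.

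Relative to the median miRNA of its array, miR-150 was at 3.16, 3.49, 3.08, 3.72 and 2.88 in the ENU livers and at 4.89, 4.18, 4.36, 4.75, 4.84, 4.61 and 4.68 in the controls. On this scale the 3 controls of the first run period, named first, lay on both sides of the others, 1 above and 2 below them, and no control overlapped an ENU liver. It was the only one of the 376 miRNAs (0.266%) below all controls, and none (0%) was above all controls. The log2 fold change was -1.35 (SE 0.23), with an adjusted p of 0.0198 in limma, and -1.33 within the first run period (exact permutation test, p = 0.0286, the smallest it can give). With this scale 3 miRNAs (0.798%) were DEMs, miR-34a, miR-34b-5p and miR-150.

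miR-146a, which NF-κB induces and which represses Traf6 and Irak1, had -ΔCt values of -0.18, -1.50, -1.26, -0.10 and -0.33 in the ENU livers. The controls were at 0.44, -0.52 and -0.35 on day 1 and at 1.61, 1.00, 1.05 and 1.33 on day 30. All controls were above every ENU liver except replicates 2 and 3 of day 1, which lay among them. Its log2 fold change was -1.33 (SE 0.45, limma adjusted p = 0.669, exact permutation p = 0.0202), and -0.67 within the first run period (SE 0.50, exact permutation p = 0.286). Relative to the median miRNA, it was -0.96 over the 12 arrays and -0.94 within the first run period, where no ENU liver overlapped a control (exact permutation test, p = 0.0286).

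miR-700 had -ΔCt values of -6.44, -7.18, -6.01, -7.47 and -6.80 in the ENU livers. The controls ran from -6.47 through -5.81 to -4.32, and control day 30 replicate 1 lay among the ENU livers. Its log2 fold change was -1.22 (SE 0.41, limma adjusted p = 0.669, exact permutation p = 0.0101) and -0.73 within the first run period (SE 0.46, exact permutation p = 0.0571). It was -0.85 relative to the median miRNA, no longer a DEM. Leaving out 1 array at a time, 9 of the 12 arrays each ended the call of miR-700, and 9 that of miR-146a. In the second run period, ENU replicate 4 was below both controls for 292 of the 376 miRNAs (77.7%), miR-150, miR-146a and miR-700 among them, and above both for 33 (8.78%), including miR-34a and miR-34b-5p. On the median scale its miR-146a lay between both controls.

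The other lymphocyte miRNAs also had negative log2 fold changes, and none of them was a DEM. Of the 6 listed, all had a negative log2 fold change, 2 were DEMs and 4 had an unadjusted limma p under 0.05. Among all 376 miRNAs these numbers were 300, 5 (1.33%) and 19 (5.05%). This list was chosen with earlier results of these data known, so its counts are no test. The median was -0.85 against -0.37 over all miRNAs, and within the first run period -0.47 against 0.21, with 4 of 6 negative. miR-155, induced in activated lymphocytes and macrophages, was at -6.17, -8.02, -7.46, -7.18 and -6.46 in the ENU livers and from -7.01 to -5.04 in the controls, a log2 fold change of -0.99 (SE 0.42, limma adjusted p = 0.669, exact permutation p = 0.0328). miR-342-3p was at -2.67, -3.80, -3.80, -3.15 and -2.89 in the ENU livers and from -2.87 to -2.33 in the controls, a log2 fold change of -0.71 (SE 0.31, limma adjusted p = 0.669, exact permutation p = 0.00631). Both miRNAs overlapped between the groups. miR-342-5p and miR-181b had log2 fold changes of -0.49 and -0.30.

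Relative to the median miRNA and within the first run period, all 6 lymphocyte miRNAs had a negative log2 fold change. So had 205 of the 376 miRNAs, and the medians were -0.73 and -0.05. Of the 6, miR-150 alone was a DEM in this setting. The leukocyte and myeloid miRNAs had a median of -0.62 there, with 4 of 5 negative, and the hepatocyte miRNAs one of -0.26, with 5 of 5. On that scale miR-150, miR-146a, miR-155 and miR-342-3p were each below every control of the period, among 9 of the 376 miRNAs (2.39%) that were, while 9 (2.39%) were above every control. In ENU replicate 4, of the second run period, miR-146a, miR-155 and miR-342-3p were at 7.96, 0.88 and 4.91 on this scale, within the range of all 7 controls. The miR-342-3p of ENU replicate 5, at 4.28, was also just within it.

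**Figure D3:**
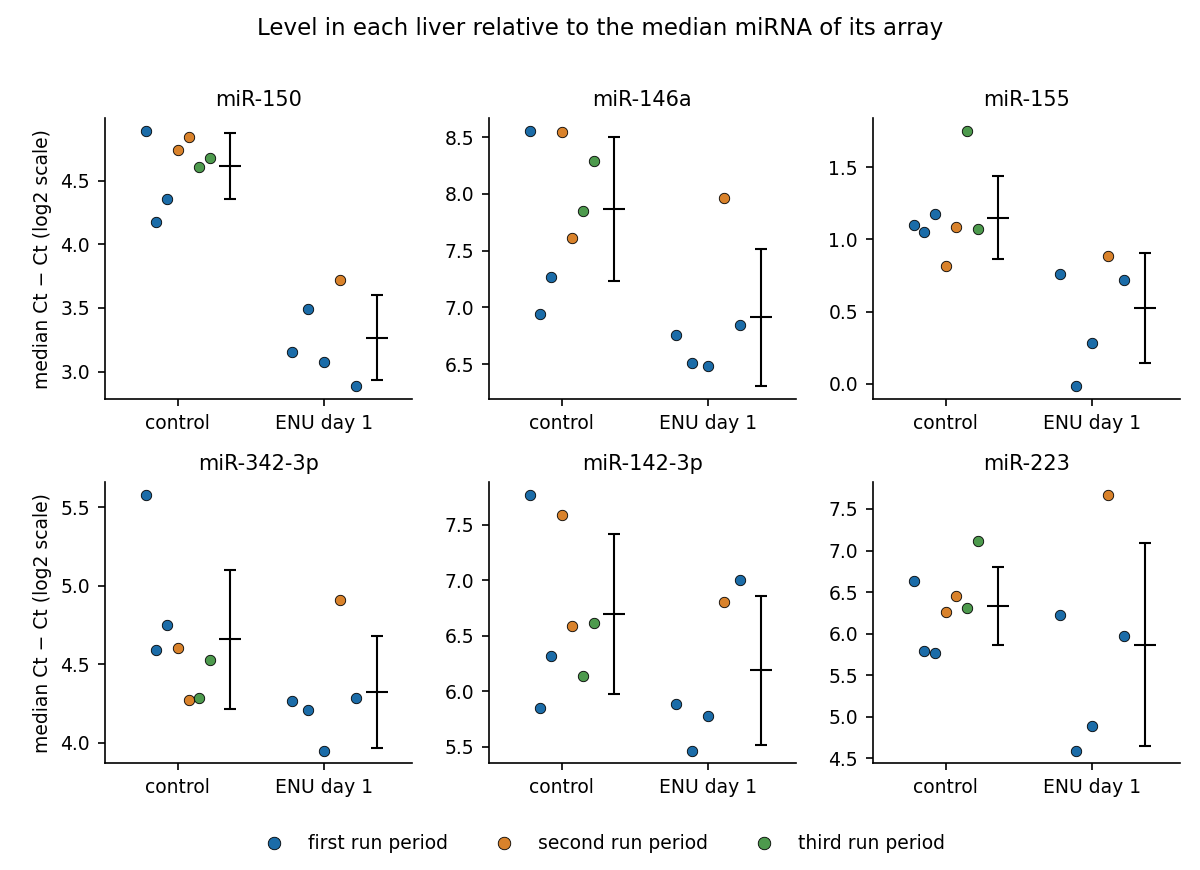
Level of 6 miRNAs of lymphocytes and myeloid cells in each of the 12 livers as the median Ct of the array minus the Ct of the miRNA (log2 scale), coloured by run period, with the mean ± SD of each group. The ENU livers lay below all controls for miR-150, and the groups overlapped for the other 5 miRNAs.

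Of the 5 leukocyte and myeloid miRNAs, none was a DEM. All had a negative log2 fold change, with a median of -0.77. miR-142-3p, present in all blood cells, had a log2 fold change of -0.88 (SE 0.47) and miR-223, of neutrophils and monocytes, one of -0.83 (SE 0.57). In the first run period they were -0.35 and -0.38. miR-146b, with the seed of miR-146a, had -0.77 (SE 0.51), and 0.01 within the first run period, where miR-146a had -0.67. The erythroid miRNAs miR-144, miR-486 and miR-451 had log2 fold changes of 0.65, 0.43 and -0.07, and none was a DEM. All 3 were positive within the first run period, as were 268 of the 376 miRNAs. The share of blood cells in each piece of liver was not measured, and its part in these values was not tested.

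None of the 5 hepatocyte miRNAs was a DEM, and their log2 fold changes were -0.65 for miR-122 to -0.98 for miR-802, which marks the adult liver. Within the first run period they were -0.03 to 0.07. Over the same arrays the median of all miRNAs was -0.37 and 0.21. Among the controls, miR-122 had a -ΔCt 1.25 higher in the 4 later controls than in the 3 of the first period (exact permutation test, p = 0.0286, the smallest it can give), and 0.35 higher relative to the median miRNA.

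None of the 6 other p53-responsive miRNAs listed was a DEM. Of these, 1 had a positive and 5 a negative log2 fold change, with a median of -0.76 against -0.37 over all miRNAs, and 3 of 6 were positive within the first run period, with a median of -0.01 against 0.21. miR-192, miR-194 and miR-215, which p53 induces in some cell types, had log2 fold changes of -0.69, -0.84 and -1.37, and 0.01, -0.03 and -0.27 within the first run period. miR-107 had 0.04 and miR-16 had -0.84, the latter -0.03 within the first run period.

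The families linked to proliferation and growth held no DEM. All 12 members of the miR-17-92 cluster and its paralogs, which are oncogenic miRNAs of dividing cells, had negative log2 fold changes, with a median of -0.35, close to that of all miRNAs. Within the first run period 11 of 12 were positive, with a median of 0.15. All 9 members of let-7 and miR-98, which repress growth genes, were negative with a median of -0.84, and the median was -0.03 within the first run period and -0.30 there relative to the median miRNA, with 9 of 9 negative. Endothelial, stromal and biliary lists held no DEM and had medians of -0.77, -0.59 and -0.66, and of -0.07, 0.03 and -0.11 within the first run period.

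Of 7 miRNAs of stress and injury, 5 had a negative and 2 a positive log2 fold change, and none was a DEM. miR-222, which represses the cell cycle inhibitor p27, had the smallest limma p among the higher miRNAs after miR-34a and miR-34b-5p. Its log2 fold change was 0.80 (SE 0.40, limma adjusted p = 0.669) and 0.43 within the first run period, and its partner miR-221 had 0.23. miR-21, which rises in injured and regenerating liver, had -0.88 (SE 0.53), and -0.20 within the first run period. The next higher miRNAs were miR-130b, miR-34c, miR-130a, miR-377, miR-144, miR-876-5p and miR-339-5p, from 0.38 to 0.95. The next lower ones were miR-470, miR-702, miR-669c, miR-127*, miR-345-3p, miR-155 and miR-483*, from -1.49 to -0.87. None of these was a DEM.

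**Figure D4:**
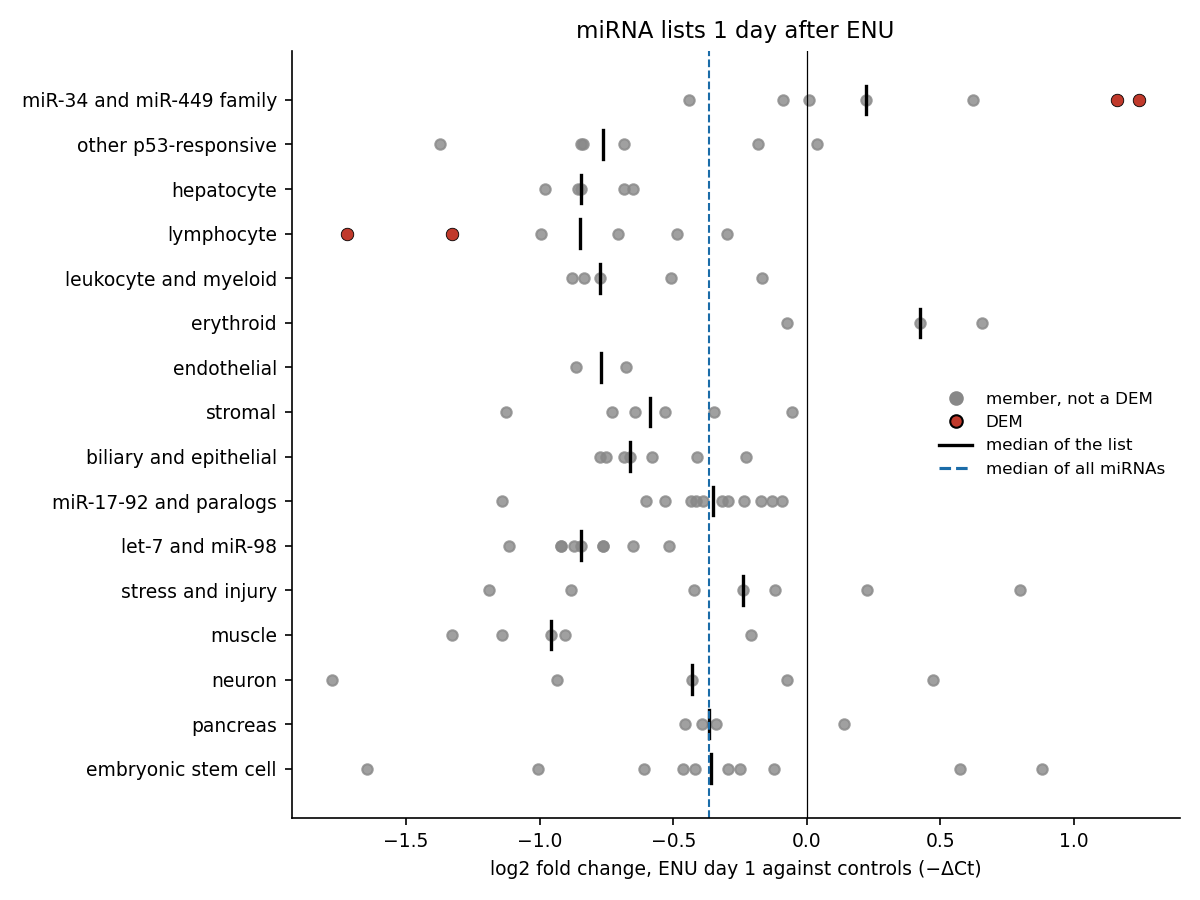
Log2 fold change of every member of 16 miRNA lists at PTD 1 against the 7 controls, with DEMs in red, the median of each list as a black bar and the median of all 376 miRNAs as a dashed line. Both higher DEMs belonged to the miR-34 and miR-449 list and 2 of the 3 lower ones to the lymphocyte list. The lists were chosen with earlier results of these data known, and most lay on or left of the dashed line.

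Within the first run period alone, 4 ENU livers against 3 controls, 4 miRNAs were DEMs (1.06%), all higher, and none was a DEM of the 12 arrays. They were miR-292-3p, miR-380-5p, miR-465a-3p and miR-672, with log2 fold changes of 1.65, 1.71, 2.08 and 1.42 within the period against 0.57, 0.08, 0.58 and 0.48 over all arrays. Their mean Ct was 31.8 to 33.8, so little of each was present. For miR-380-5p the 3 controls of the first run period were at -11.87, -11.94 and -12.15, the 4 ENU livers at -10.36, -10.66, -10.19 and -9.90 and the 4 later controls from -9.10 to -7.91. The ENU livers thus lay between the controls of day 1 and those of day 30. In the period, 17 miRNAs (4.52%) were above every control and 2 (0.532%), miR-150 and miR-700, below.

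With the run period as a block, 5 miRNAs (1.33%) were DEMs. miR-150 and miR-34b-5p remained, and miR-292-3p, miR-202-5p and miR-582-5p were added, with log2 fold changes of 1.66, 2.07 and 1.32. For miR-202-5p and miR-582-5p these were 2.01 and 1.41 within the first run period and 0.46 and 0.60 over the 12 arrays with no block. In that fit miR-34a had a log2 fold change of 1.07 (SE 0.37), miR-146a one of -0.88 (SE 0.39) and miR-700 one of -0.97 (SE 0.39), with limma p values of 0.0113, 0.0414 and 0.0257, above the limit for a DEM.

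**Figure D5:**
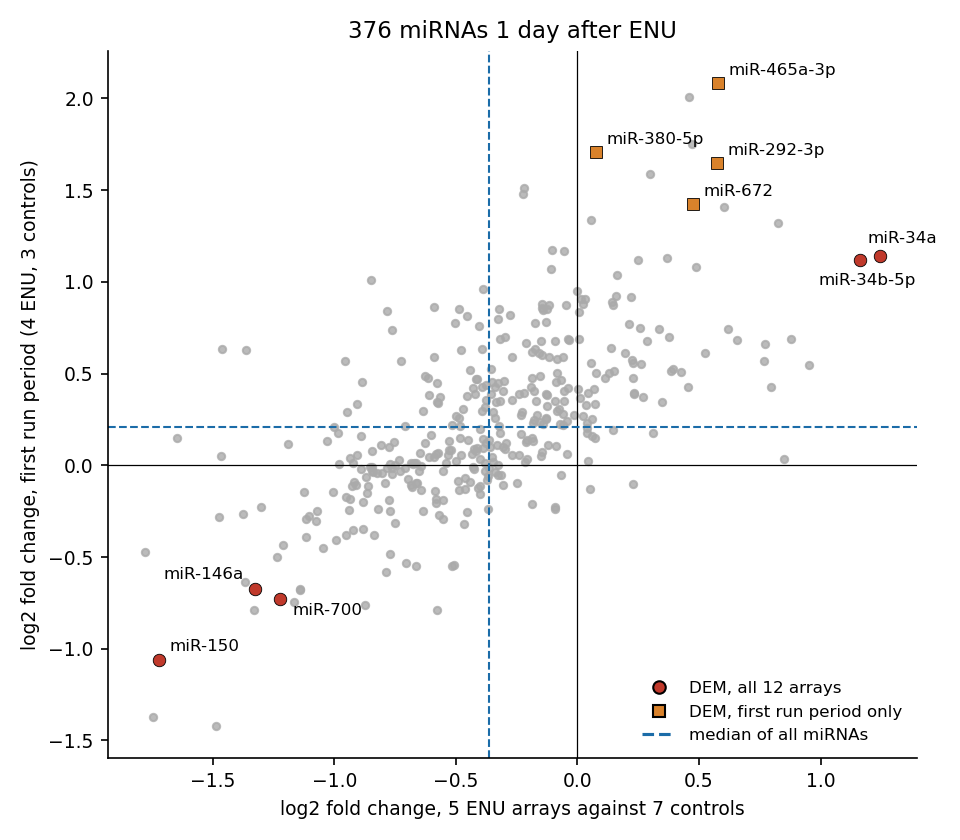
Log2 fold change of the 376 miRNAs at PTD 1 over all 12 arrays (x axis) and within the first run period (y axis), which share arrays. The 5 DEMs kept their sign on both axes, and the medians of all miRNAs, dashed, were -0.37 and 0.21.

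The levels at PTD 1 were also set against those of the 5 livers of PTD 3, from mice given the same dose of ENU, a comparison that uses no control. In limma, 11 miRNAs were DEMs, of which 9 (2.39%) were lower and 2 (0.532%) were higher at PTD 1, and none had an adjusted p under 0.05, with 56 at an unadjusted p under 0.05. The smallest p values were those of miR-133b and miR-294*, of the muscle and embryonic stem cell lists. They were 2.14 (SE 0.48) and 2.47 (SE 0.56) lower at PTD 1 (limma adjusted p = 0.145 for both). In the livers of PTD 1 their Ct was 34.0 to 35.7 and 33.4 to 36.2, so little of each was present. The other lower ones were miR-150, miR-770-5p, miR-700, miR-21*, miR-34a, miR-467c and miR-29a, with differences of -1.52 to -1.07. Within the first run period, miR-21*, miR-34a, miR-467c and miR-29a were no longer DEMs. At PTD 1, 8 miRNAs (2.13%) were below every liver of PTD 3 and none (0%) above. miR-34a was at 1.03, 1.08, 1.02, 2.35 and 0.91 at PTD 3 and was 1 of these 8, as were miR-150 and miR-700. Its mean at PTD 1 was 1.27 lower (SE 0.40, limma adjusted p = 0.311, exact permutation p = 0.00794). This call was lost in 9 of 10 fits that each left out 1 array, all but that without ENU replicate 5 of PTD 1, with differences of -1.36 to -0.9998 in the 9. miR-34b-5p was 1.18 lower and miR-34c 1.25 lower at PTD 1, neither a DEM. The median of all miRNAs was 0.47 lower at PTD 1.

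miR-150 was at -3.05, -2.26, -2.86, -3.63 and -2.21 at PTD 3. The livers of PTD 1 were 1.51 lower (SE 0.38, limma adjusted p = 0.151, exact permutation p = 0.00794). miR-700 was at -5.87, -5.53, -5.31, -5.13 and -5.09 at PTD 3, and the livers of PTD 1 were 1.40 lower (SE 0.38, limma adjusted p = 0.168, exact permutation p = 0.00794). miR-146a was 0.86 lower at PTD 1 and not a DEM. The higher miRNAs, miR-684 and miR-880, were named after their values were seen. miR-684 ran from -9.61 to -5.47 at PTD 1 and was at -9.35, -9.17, -14.86, -13.13 and -12.95 at PTD 3. Replicates 1 and 2 of PTD 3 thus lay within the range of PTD 1. The arrays of the other 3 had a median miRNA Ct of 29.8 to 29.9, against 29.0 and 29.2 in replicates 1 and 2. The part of this in the values was not tested. The difference of miR-684 was 4.27 (SE 1.07) over all arrays and 4.35 (SE 0.94) relative to the median miRNA of each array. Within the first run period, which held all of PTD 3, the differences of miR-684 and miR-880 were 4.77 and 2.22. Over all arrays, miR-880 ran from -11.57 to -9.85 at PTD 1 and from -14.58 to -11.07 at PTD 3. The call of miR-880 was lost without replicates 1, 2, 3 or 5 of PTD 1 or replicates 2, 3 or 5 of PTD 3, with differences of 1.63 to 2.16.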

How the data were processed

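Small RNA of each liver was measured on 1 real-time PCR array. The authors deposited the Ct of every well, the cycle at which fluorescence crossed a fixed threshold, without normalization, and less RNA gives a higher Ct. Wells were named by the list of wells that comes with the study. Groups followed the labels, although the study's methods divide the controls between both days differently, so all 7 were used as 1 control group. Run periods were set from the run times in the files, split at gaps of over 14 days.

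For ΔCt, the average Ct of the reference RNAs on an array (U6, snoRNA142, snoRNA202 and snoRNA251) was subtracted from each Ct. All 376 miRNAs were kept, and the 5 Undetermined wells of the 12 arrays were missing values. Limma (version 3.58.1, R 4.3.3) tested -ΔCt, two-sided, with no covariate, and its p-values were adjusted over all miRNAs by Benjamini-Hochberg. Single miRNAs were also given two-sided exact permutation tests of the difference of means. The scripts were tested on simulated data. The members and the 16 lists were chosen with earlier results of these data known, so lists are described by counts and medians, with no test. Named miRNAs were all DEMs, the 10 higher and the 10 lower ones with the smallest p, all list members, those with an Undetermined well and the reference RNAs, and where a setting alone called a miRNA, it may be named with both values. Alternatives covered the normalization, the run period, the controls, the treatment of high and Undetermined Ct values, the test and each array left out. A Ct gives no count of molecules, so the number of arrays limits the precision. Sequences and positions are from RefSeq, build GRCm38.p6.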

Additional observations from a re-analysis of the deposited data

Results flagged for a closer look

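ENU replicate 4 stood apart from the other 4 livers of its group in 3 of 52 values examined, each the distance of 1 liver from the rest of its group, and chance alone would mark about 1 group in 20. Its median miRNA Ct was 30.17, against 28.79 to 29.05 in the others. Its Ct of snoRNA202 was 21.25, against 22.85 to 23.36. Its -ΔCt of miR-377 was -11.31, against -9.57 to -9.22. It was also the 1 ENU array of PTD 1 outside the first run period. Without it, miR-34a, miR-150 and miR-146a were DEMs and miR-34b-5p and miR-700 were not. The part of the array in these values was not tested.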

How the results depend on the processing

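At PTD 1 the number of DEMs was 5, and 2 to 7 with 1 array left out. It was 3 with the median Ct of each array (2 higher, 1 lower), 3 without snoRNA202 (2 and 1), 6 without snoRNA142 (1 and 5), 4 without snoRNA251 (2 and 2) and 4 with the mean Ct of the miRNAs at a mean Ct of at most 30 (3 and 1). It was 14 in one fit of all 35 arrays (1 higher, 13 lower) and 49 against the controls of day 30 alone (2 and 47). Against the controls of day 1 alone it was 4 (4 and 0), and none of the 5 DEMs was called. There miR-34a, miR-34b-5p, miR-150, miR-700 and miR-146a had log2 fold changes of 1.06, 1.23, -1.06, -0.90 and -0.53. The methods name a t-test without its scale. It gave 4 on ΔCt and 3 on 2 to the power -ΔCt, and the exact permutation test gave 3. With an adjusted p under 0.05 and a fold change above 2 in limma, the number was 0 at PTD 1 and 0 against PTD 3, where 19 and 56 miRNAs had an unadjusted p under 0.05. The other 3 tests also left 0 after adjustment, with 11, 13 and 15 miRNAs at an unadjusted p under 0.05. The exact permutation test can give no p under 0.00126, so adjustment over 376 miRNAs could hardly leave any there. Chosen after seeing the data, the run period as a block on the median scale gave 10 and the first run period on that scale 6. Against PTD 3 the number was 11, 17 with the median Ct (8 higher, 9 lower) and 6 to 19 with 1 array left out.

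Of 33 alternatives, miR-150 was a DEM in 31, miR-34a in 27, miR-34b-5p in 23, miR-146a in 11 and miR-700 in 10, and no sign was reversed among the 20 miRNAs that had the smallest p, 10 in each direction. The exceptions of miR-150 were the first run period only and the controls of day 1 only (-1.06 in both). Among the arrays left out in turn, miR-146a was not a DEM without control day 1 replicate 1 (log2 fold change -1.36), control day 30 replicates 1 to 4 (-1.17, -1.27, -1.26 and -1.21) or ENU replicates 1, 2, 3 and 5 (-1.45, -1.12, -1.18 and -1.41). The call of miR-700 ended without control day 1 replicates 1 and 2 (-1.27 and -1.27), control day 30 replicates 2 to 4 (-1.17, -1.16 and -1.02) or ENU replicates 1, 2, 4 and 5 (-1.31, -1.12, -1.05 and -1.22). In each of these fits the unadjusted limma p was above the limit of 0.01. A replicate block gave 5 DEMs at PTD 1, of which 2, miR-150 and miR-146a, were among the 5 above. The calls of miR-34a, miR-34b-5p and miR-700 were lost, with log2 fold changes of 1.06, 0.91 and -1.25. Against PTD 3 the block gave 12 DEMs, and miR-34a and miR-700 (-1.27 and -1.40) were no longer called. Of 13 alternatives against PTD 3, miR-150 and miR-684 were DEMs in 13, miR-700 in 12, miR-880 in 6 and miR-34a in 2. Among these, the first run period only and the fit without ENU replicate 4 of PTD 1 use the same arrays and are the same fit. The numbers do not pair mice, and same-numbered deviations correlated across miRNAs from -0.30 to 0.41. The cause of these differences was not tested.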

Other observations

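There were 5 miRNAs that had an Undetermined well among the 12 arrays. In ENU replicate 4 these were miR-22, whose other ENU livers had a median Ct of 18.1, and miR-721, with 36.3. In ENU replicate 5 it was miR-24, with 19.5 in the others. In ENU replicate 2 it was miR-381, and in control day 30 replicate 1 miR-743b-5p, both at a mean Ct above 30. Over the remaining wells none of the 5 was a DEM, and miR-22 and miR-24 had log2 fold changes of 0.15 and -0.58.

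The lists of tissues other than liver held no DEM at PTD 1 over the 12 arrays. The embryonic stem cell list held 1, miR-292-3p, within the first run period and with the period as a block. Of 5 neuron miRNAs, 1 had an unadjusted limma p under 0.05, miR-153, with a log2 fold change of -1.78 at a mean Ct above 30. The medians of the muscle, neuron, pancreas and embryonic stem cell lists were -0.96, -0.43, -0.36 and -0.36, and 0.04, 0.04, 0.34 and 0.38 within the first run period, against -0.37 and 0.21 over all miRNAs.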
